A study of Mus musculus with 5 samples.

Results

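Expression of 9 genes of the oligodendrocyte lineage and of myelin was examined in 2 NSC and 3 STO libraries. The genes were Nkx2-2, Myrf, Gpr17, Enpp6, Cnp, Mbp, Mag, Mobp and Mog, chosen by name for their place in the lineage, with earlier results of these data known, out of 24843 genes in the files. All 9 symbols were found, with 28 RefSeq transcripts between them, and the FPKM values of a gene's transcripts were summed. FPKM counts fragments per kilobase of transcript, scaled to the mapped fragments of each library, so levels of different genes can be set side by side.

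The NSCs were primary neural stem cells from E12.5 mouse cortex. They were grown as a monolayer on poly-L-ornithine and laminin in neural basal medium with EGF, bFGF, heparin and B27, which keeps them dividing, and were used at passage 5 to 8. STO cells are an embryonic fibroblast line resistant to thioguanine and ouabain, grown in DMEM with serum and used after more than 30 passages. The labels give C57BL/6 as the strain of both, and name no transgene or treatment. The paper, however, describes STO cells as derived from SIM mouse embryos, so a shared strain is not settled. Whether replicates came from separate cultures is not stated, so p-values measure only the spread between these samples. Read as counting error, the deposited intervals imply about 20600000 and 22300000 fragments in the NSC replicates and 15200000 to 22000000 in the STO replicates. These totals can understate the depth, since intervals of well expressed genes can be wider than counting error alone.

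Oligodendrocytes wrap axons of the central nervous system in myelin. They arise from progenitors that divide in response to growth factors, leave the cell cycle, pass through a committed premyelinating stage and then switch on the genes of the myelin sheath. Progenitors are specified by the transcription factors OLIG1, OLIG2 and SOX10. NKX2-2 and MYRF act at the step to differentiation, GPR17 and ENPP6 mark the committed and newly formed cell, and CNP, MBP, MAG, MOBP and MOG belong to the myelinating cell, with MOG among the last to appear. Neural stem cells can give rise to this lineage, and fibroblasts do not.

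RNA of all 9 genes was detected in both NSC replicates, and in every case each NSC replicate was above each STO replicate. Among the genes tested, 46.0% showed this separation in the same direction. Of the members, 8 reached a mean of 1 FPKM in a cell type and were tested with limma on log2(FPKM + 1), and all 8 of these were higher in NSCs at an adjusted p under 0.05, against 43.7% of the 12277 genes tested. In the other direction 41.9% of these genes were called and 43.9% had every STO replicate above every NSC replicate, so that 85.7% were called one way or the other, and a call as such says little about a single gene here. The balance of the directions turned with TPM scaling (5078 genes higher in NSCs and 6163 in STO cells) and with quantile normalization (5050 and 5445). Of these 8, 7 entered the test only through their level in NSCs and so could hardly fail to differ, which leaves Cnp as the member measured at 1 FPKM or more in both cell types. The adjusted p-values given below for those 7 are to be read with this limit. The median difference of the members tested was 3.54 in log2(FPKM + 1), beside 0.023 for all genes tested. Fewer cells of a type and less RNA per cell cannot be told apart in such bulk samples.

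**Figure D1:**
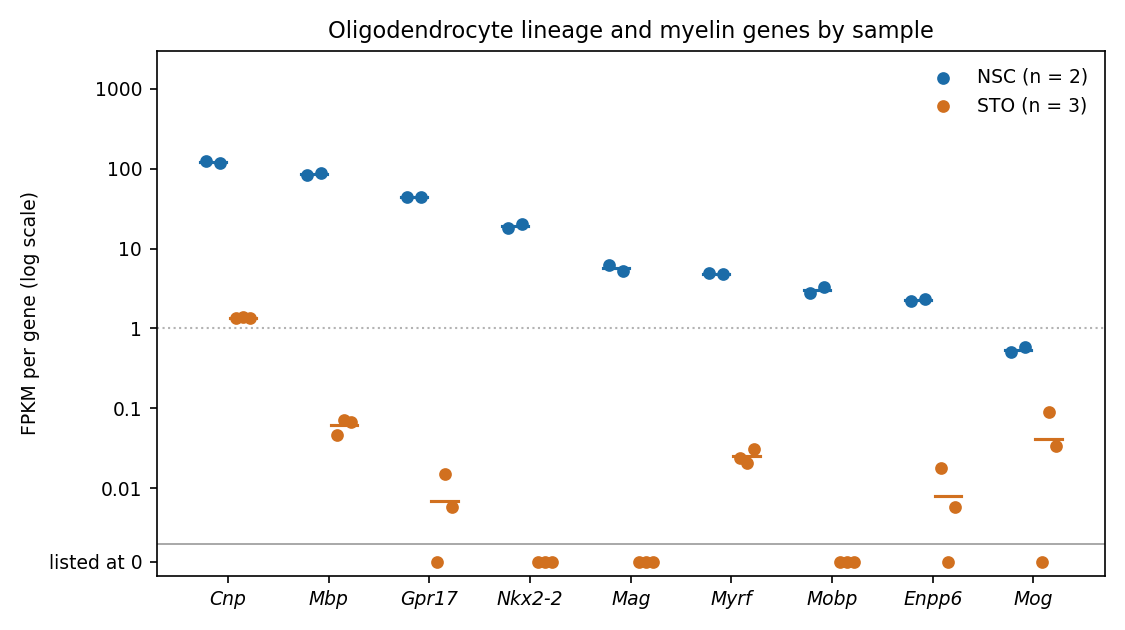
FPKM of each gene in every sample on a log axis, with NSC replicates (n = 2) in blue, STO replicates (n = 3) in orange and horizontal bars at the mean of each cell type. Values listed at 0 are drawn under the grey line, and the dotted line marks 1 FPKM. NSC levels span from Cnp at 117 to 124 FPKM to Mog at 0.503 to 0.578 FPKM, and the one gene above the dotted line in STO cells is Cnp.

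Nkx2-2 encodes a homeodomain factor of ventral neural progenitors that later promotes oligodendrocyte differentiation. It stood at 18.2 and 20.3 FPKM in NSC replicates 1 and 2 and was listed at 0 in STO replicates 1, 2 and 3. Both of its transcripts were therefore seen in NSCs and neither in STO cells, a difference of 4.34 ± 0.059 (SE) in log2(FPKM + 1) with an adjusted p of 1.06e-08 (limma). In mm9 the gene lies on the minus strand of chromosome 2, 147003282 to 147012138. An antisense RNA, Nkx2-2os, overlaps it on the plus strand and was listed at 0 in all 5 libraries.

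Myrf encodes a membrane-bound factor whose released part enters the nucleus and activates myelin genes. Its level was 4.88 and 4.77 FPKM in the NSC replicates and 0.024, 0.021 and 0.031 FPKM in the STO replicates, the latter resting on 3, 3 and 6 implied fragments. The NSC mean was 191 times the STO mean (153 to 235 times for single pairs of samples), a ratio that divides by these few fragments. The adjusted p was 2.15e-08 (limma), but Myrf entered the test only through NSCs. Its mm9 locus is on the minus strand of chromosome 19, 10282761 to 10315238.

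Gpr17, a G protein-coupled receptor of committed progenitors that holds back their maturation, was expressed well above Enpp6, the other member tied to that stage. It measured 44.4 and 43.6 FPKM in NSCs, and the replicates differed by a factor of only 0.983. In STO cells it was listed at 0 in replicate 1 and at 0.015 and 0.0058 FPKM in replicates 2 and 3, from 1.32 and 0.513 implied fragments. The difference was 5.48 ± 0.048 (SE) in log2(FPKM + 1) with an adjusted p of 4.57e-09 (limma). Gpr17 (chromosome 18, 32102653 to 32109290, minus strand) lies within Lims2 on the other strand, and Lims2 was at 0 in both NSC replicates, so no signal of its host was listed beside that of Gpr17 in NSCs.

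Enpp6 encodes a choline-releasing phosphodiesterase of newly forming oligodendrocytes. It stood at 2.21 and 2.31 FPKM in NSCs. The STO replicates stood at 0.018, 0 and 0.0059 FPKM, from 2, 0 and 1 implied fragments. The difference of 1.69 ± 0.041 (SE) in log2(FPKM + 1) was the smallest among the members tested and had an adjusted p of 1.12e-07 (limma). Enpp6 also had the lowest NSC level of the members tested, and the pseudocount of 1 understates differences of such low genes. The single RefSeq transcript runs along the plus strand of chromosome 8 from 48072241 to 48182115.

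Among the myelin genes, Cnp, a cyclic nucleotide phosphodiesterase of non-compact myelin that appears early in the lineage, had the highest level of all 9. It reached 124 and 117 FPKM in NSCs, which placed it above 97.7% of all genes. In STO cells it was low but steady at 1.35, 1.38 and 1.33 FPKM, from 56.1, 78.3 and 99.6 implied fragments. The NSC mean was 89.0 times the STO mean (85.0 to 93.0 times for single pairs of samples), with a difference of 5.69 ± 0.053 (SE) in log2(FPKM + 1) and an adjusted p of 4.75e-09 (limma). Cnp is on the plus strand of chromosome 11, 100436253 to 100443053.

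Mbp encodes the basic protein that compacts the myelin membrane. Its summed level was 83.4 and 88.3 FPKM in NSCs, higher than that of 96.5% of genes, and 0.046, 0.072 and 0.066 FPKM in STO cells. The difference of 6.35 ± 0.054 (SE) in log2(FPKM + 1) was the largest among the members tested and ranked 49 among the genes tested, with an adjusted p of 4.57e-09 (limma). The locus spans 110515 bases of the plus strand of chromosome 18, 82644515 to 82755029, and holds starts that lie 79340 bases apart. The Golli transcripts begin at the upstream start, which is also used outside the oligodendrocyte lineage, and the classic myelin transcripts begin downstream. The 6 transcripts with downstream starts carried all of the Mbp signal in NSCs and none in STO cells. The trace in STO cells was assigned to NM_001025245, which begins upstream, with 4.17, 7.88 and 10.1 implied fragments in replicates 1, 2 and 3, and both transcripts with the upstream start were at 0 in NSCs. The cell types thus differed in which start the assigned fragments belonged to as well as in the amount of Mbp RNA, although the STO level was too low for a firm assignment.

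Mag, a sialic acid-binding adhesion protein of the membrane that faces the axon, was measured at 6.23 and 5.18 FPKM in NSCs and listed at 0 in each STO replicate. Its replicates differed more than those of any other member, with NSC replicate 2 at 0.831 times replicate 1. The difference from STO cells was 2.74 ± 0.073 (SE) in log2(FPKM + 1) with an adjusted p of 1.66e-07 (limma). Mobp, a small basic protein of compact myelin, showed the same contrast at about 3 FPKM. It stood at 2.80 and 3.28 FPKM in NSCs and at 0 in every STO replicate (difference 2.01 ± 0.059 SE, adjusted p of 2.79e-07 by limma). Mag and Mobp entered the test only through NSCs, so their calls were largely set by the filter. Mog, the glycoprotein on the outer surface of the finished sheath, was the lowest member at 0.503 and 0.578 FPKM in NSCs, from 26.9 and 33.4 implied fragments. In STO replicates 1, 2 and 3 it was listed at 0, 0.091 and 0.034 FPKM, from 0, 4 and 2 implied fragments. The groups did not overlap, but Mog was below the filter and was not tested. The mm9 loci are on minus strands for Mag (chromosome 7, 31684200 to 31699941) and Mog (chromosome 17, 37147685 to 37160343) and on the plus strand for Mobp (chromosome 9, 120058860 to 120090604).

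**Figure D2:**
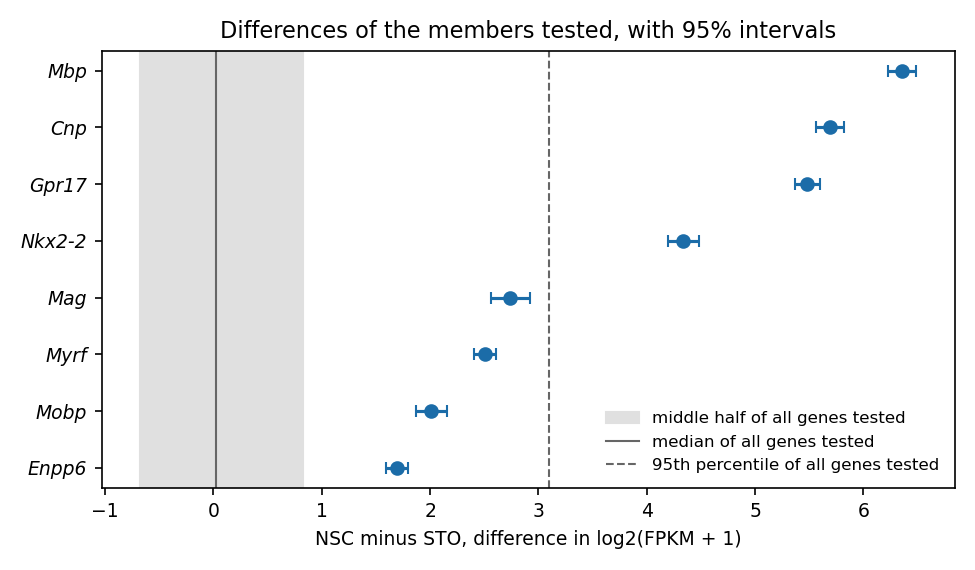
Difference between NSCs and STO cells in log2(FPKM + 1) for the 8 members tested, with points at the limma estimate and bars for the 95% interval. The grey band holds the middle 50% of all 12277 genes tested, the solid line their median of 0.023 and the dashed line their 95th percentile of 3.10. Mbp, Cnp, Gpr17 and Nkx2-2 lie beyond the dashed line, and Mag, Myrf, Mobp and Enpp6 lie between the band and that line. On this scale the pseudocount of 1 makes differences of low genes smaller.

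Within NSCs the order of the means was Cnp, Mbp, Gpr17, Nkx2-2, Mag, Myrf, Mobp, Enpp6 and Mog, and the ranges of the replicates did not overlap between any neighbours in this order. Mag exceeded Myrf by 0.881 FPKM, which is only 1.18 times their combined SD, so the order of these neighbours was not settled by the replicates. For Mobp and Enpp6 the gap was 2.28 times the combined SD, and for the other neighbours at least 5.19 times. Genes of the myelinating cell were spread over this order, with Mbp above Nkx2-2 and Myrf, and Mobp and Mog near or at the bottom. Between the first and the last gene the NSC means fell from 121 ± 5.01 to 0.541 ± 0.053 FPKM (SD, n = 2). In STO cells no order could be drawn below Cnp, because the remaining levels rested on 0 to 10.1 implied fragments and the ranges of Mbp and Mog overlapped.

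The FPKM of a gene is divided among its transcripts by Cufflinks, which estimates the split from reads that the transcripts share, and for Mbp, Mag and Mobp that split differed between the NSC replicates. For Mbp, NM_001025259 held 100% of the signal in replicate 1 but 61.7% in replicate 2, where NM_001025258 and NM_001025256 took 21.1% and 17.2%, while the sum changed by a factor of 1.06. Mag was split between NM_001346085 and NM_001346088, with 47.7% for the former in replicate 1 and 60.6% in replicate 2. For Mobp the noncoding NR_153958 held 56.1% and 65.7%, and NM_001039365 was at 0 in replicate 1 and held 24.7% in replicate 2. The split of Nkx2-2 was stable, with 79.8% and 80.8% for NM_010919, and the remainder belonged to NM_001077632, whose locus reaches further downstream. Cnp came wholly from NM_009923 in NSCs. NM_001146318, which starts 952 bases downstream, was above 0 only in STO replicate 1, where it held 13.2% of the Cnp signal. Over all members, 16 of the 28 transcripts were above 0 in at least 1 NSC replicate and 7 in at least 1 STO replicate.

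**Figure D3:**
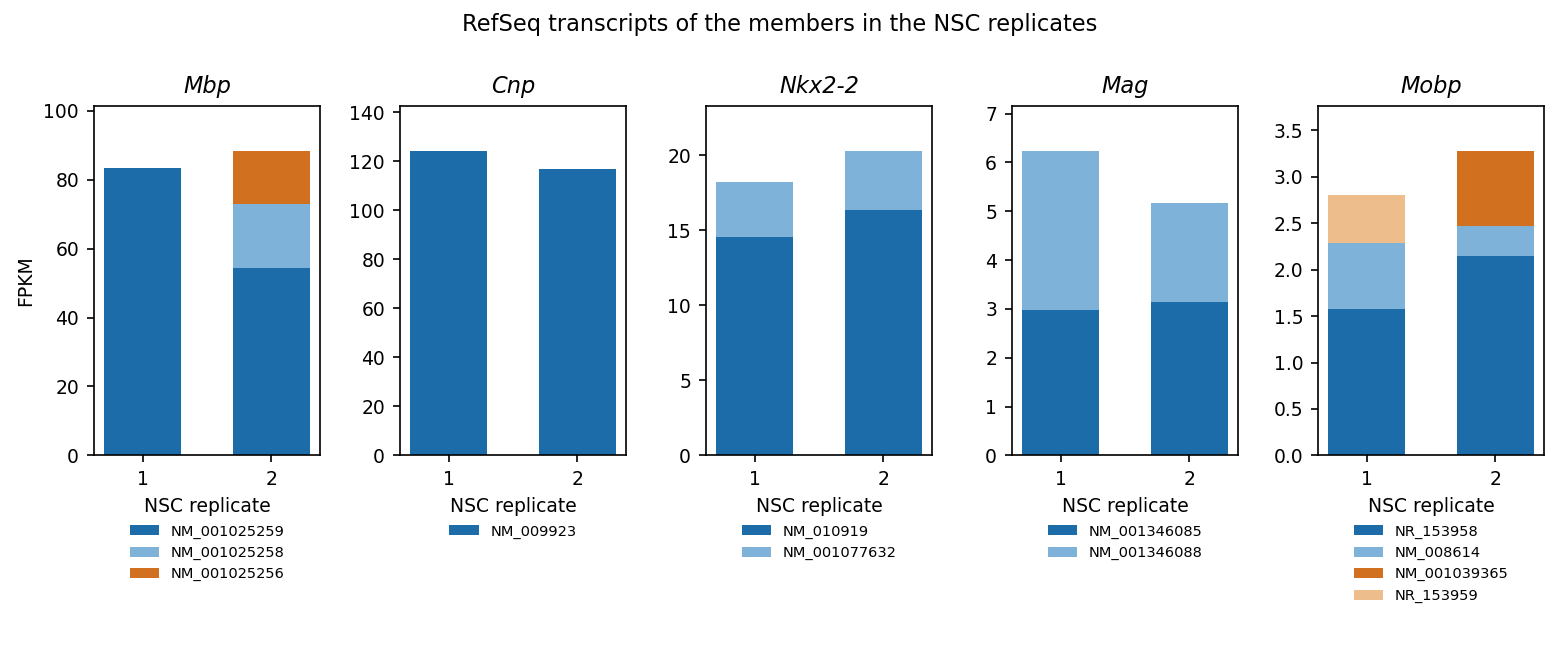
FPKM of each RefSeq transcript above 0 in NSC replicates 1 and 2 for the members with more than 1 transcript, as stacked bars with a separate axis for each gene. The height of the bars is similar in both replicates, but the division of Mbp and Mobp among transcripts is not, whereas NM_010919 makes up 79.8% and 80.8% of Nkx2-2.

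Promoter sequences were compared because the members were high in the same cell type. RefSeq windows were found for Nkx2-2, Mag, Enpp6, Mobp, Cnp and Mog, and none for Mbp, Gpr17 and Myrf. Each window was matched exactly to a single place in mm9 and the 250 bases before the start are given for 5 of these genes, the most highly expressed (Cnp), a regulator (Nkx2-2), both myelin genes listed at 0 in every STO replicate (Mag and Mobp) and the lowest (Mog). Every printed window ends next to a deposited transcript start of its gene. Capitals mark the cores searched on both strands, namely CANNTG (an E-box, which OLIG and ASCL factors bind), CAGCTG (which is also an E-box), ACAAAG and ACAATG (SOX), CACTTG (NKX2, also an E-box) and CACTTA (NKX2), and CTGGCAC (MYRF).
Cnp, chr11:100436003-100436252, plus strand: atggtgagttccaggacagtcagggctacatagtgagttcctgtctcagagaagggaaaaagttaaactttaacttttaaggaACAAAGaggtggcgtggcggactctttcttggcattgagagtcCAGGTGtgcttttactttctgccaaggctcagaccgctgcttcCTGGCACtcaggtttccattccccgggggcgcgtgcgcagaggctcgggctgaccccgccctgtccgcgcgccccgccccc
Nkx2-2, chr2:147012139-147012388, minus strand: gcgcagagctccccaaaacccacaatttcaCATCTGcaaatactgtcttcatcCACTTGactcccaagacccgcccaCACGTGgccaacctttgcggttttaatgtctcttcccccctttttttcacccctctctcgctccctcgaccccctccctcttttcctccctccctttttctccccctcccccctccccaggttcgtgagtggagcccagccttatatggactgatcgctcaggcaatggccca
Mag, chr7:31699942-31700191, minus strand: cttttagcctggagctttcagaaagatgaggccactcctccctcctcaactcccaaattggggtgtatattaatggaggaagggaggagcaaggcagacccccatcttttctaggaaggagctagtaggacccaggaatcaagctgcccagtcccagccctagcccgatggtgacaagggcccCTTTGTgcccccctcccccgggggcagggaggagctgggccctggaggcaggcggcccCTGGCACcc
Mobp, chr9:120058610-120058859, plus strand: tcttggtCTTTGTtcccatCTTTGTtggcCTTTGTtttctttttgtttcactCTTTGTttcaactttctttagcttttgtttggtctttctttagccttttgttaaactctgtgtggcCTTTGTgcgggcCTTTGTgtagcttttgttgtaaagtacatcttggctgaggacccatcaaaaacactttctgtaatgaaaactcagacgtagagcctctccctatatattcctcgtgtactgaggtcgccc
Mog, chr17:37160344-37160593, minus strand: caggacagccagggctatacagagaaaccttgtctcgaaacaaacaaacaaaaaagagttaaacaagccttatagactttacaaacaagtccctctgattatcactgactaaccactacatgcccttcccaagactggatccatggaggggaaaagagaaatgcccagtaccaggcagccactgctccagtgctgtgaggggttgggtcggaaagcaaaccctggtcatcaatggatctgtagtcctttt

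The printed windows of Cnp and Mag each held a SOX core and the MYRF core. In Cnp the MYRF core began 81 bases and the SOX core 167 bases before the start, and in Mag they began 9 and 67 bases before it. Cnp also held an E-box 124 bases before its start. Mag had further windows that are not printed. The one at 31699341 to 31699590 held 2 E-boxes and no other core. The one at 31699883 to 31700132, which ends 59 bases from the nearest deposited start, held ACAAAG, the MYRF core and CACTTG. The MYRF core was present in 4.14% and ACAAAG in 16.5% of the 27025 RefSeq promoters of the same length. Mobp held ACAAAG 6 times on the minus strand, 120 to 243 bases before the start. Nkx2-2 had 3 E-boxes, of which the one 197 bases before the start is also CACTTG. E-boxes were found in 66.0% of all promoters and CACTTG in 11.6%. In the Mog window no core was found. Enpp6 held ACAATG once, which 10.99% of promoters do. CAGCTG and CACTTA, found in 12.8% and 8.10% of promoters, were not seen in any window of the members. These matches describe letters in short windows only.

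Other genes of the lineage were counted by role. Of 13 progenitor genes, 12 were tested, with 11 higher in NSCs and 1 higher in STO cells, and 10 entered the test only through NSCs. Among all genes tested, 43.7% were called higher in NSCs and 41.9% in STO cells. Olig1 reached 964 and 1108 FPKM and Olig2 499 and 493 FPKM in NSCs, both listed at 0 in every STO replicate. These levels were several times that of Cnp, the highest member. Sox10, the factor that acts with MYRF on myelin genes, was far lower at 8.66 and 10.2 FPKM in NSCs and 0.016, 0 and 0 FPKM in STO cells. Ptprz1, a receptor phosphatase of progenitors, stood at 206 and 226 FPKM in NSCs and at 0 in STO cells, and Sox8, a relative of Sox10, at 105 and 114 FPKM against 0.129 to 0.281 FPKM. Cspg4, which encodes NG2, had 24.8 and 26.3 FPKM in NSCs and 4.09 to 4.44 FPKM in STO cells. The gene that went the other way was Pdgfra, the PDGF receptor of progenitors and of fibroblasts. It measured 30.4 and 30.1 FPKM in NSCs and 344, 355 and 344 FPKM in STO cells (11.5 times higher, adjusted p of 1.34e-08 by limma).

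Of 10 premyelinating genes, 7 were tested, with 6 higher in NSCs and 1 higher in STO cells. The shares over all genes tested were 43.7% and 41.9%. Of these 7 premyelinating genes, 5 were at 1 FPKM or more in both cell types. Bcas1, a marker of newly formed oligodendrocytes, followed the members, with 39.7 and 38.8 FPKM in NSCs and at most 0.045 FPKM in STO cells. Fyn, a kinase that promotes myelination, was 15.0 times higher in NSCs, and Sirt2, a deacetylase, 3.09 times higher. Tcf7l2, a WNT effector of differentiation, had 5.44 and 5.13 FPKM in NSCs and 8.12, 8.88 and 6.79 FPKM in STO cells and was the gene called higher in STO cells (difference of -0.50 ± 0.11 SE in log2(FPKM + 1), adjusted p of 0.0042 by limma). With NSC replicate 1 or 2 left out its adjusted p was 0.058 or 0.081 (limma).

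Of 20 further myelin and mature genes, 14 were tested and all 14 were called higher in NSCs, beside 43.7% of all genes tested. Of these 14, 13 entered only through NSCs, so their calls were largely set by the filter. Cldn11, the tight junction protein of the sheath, had 24.6 and 21.02 FPKM in NSCs and was listed at 0 in STO cells, and Ugt8a, the enzyme of galactosylceramide synthesis, had 6.24 and 5.71 FPKM against at most 0.012 FPKM. Plekhb1 and Car2 led the list with means of 138 and 123 FPKM in NSCs. The 6 genes not tested stayed below 1 FPKM in the mean of either cell type, as Mog did. The median NSC level was 30.3 FPKM over the progenitor genes, 5.52 FPKM over the premyelinating genes and 2.74 FPKM over the further myelin genes. NSC means within these lists ran, in the same order, from 0 to 1036, 0 to 240 and 0.045 to 138 FPKM. The lists leave out the 9 members, such as Cnp and Mbp, so the medians do not rank the stages.

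Of 8 inhibitors of oligodendrocyte differentiation, 7 were higher in NSCs and 1 in STO cells, beside 43.7% and 41.9% of all genes tested, and 3 entered the test only through NSCs. These 3, Sox6, Hes5 and Lingo1, were near 0 in STO cells and reached means of 29.9, 22.7 and 11.1 FPKM in NSCs. Id4 was the gene higher in STO cells, with 1.44 and 1.01 FPKM in NSCs and 10.7, 9.67 and 10.5 FPKM in STO cells. Id2 had 41.8 and 50.3 FPKM in NSCs and 39.4, 36.7 and 37.2 FPKM in STO cells, and its call (adjusted p of 0.024 by limma) was lost under 5 alternatives, with an adjusted p of 0.059 to 0.28.

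**Figure D4:**
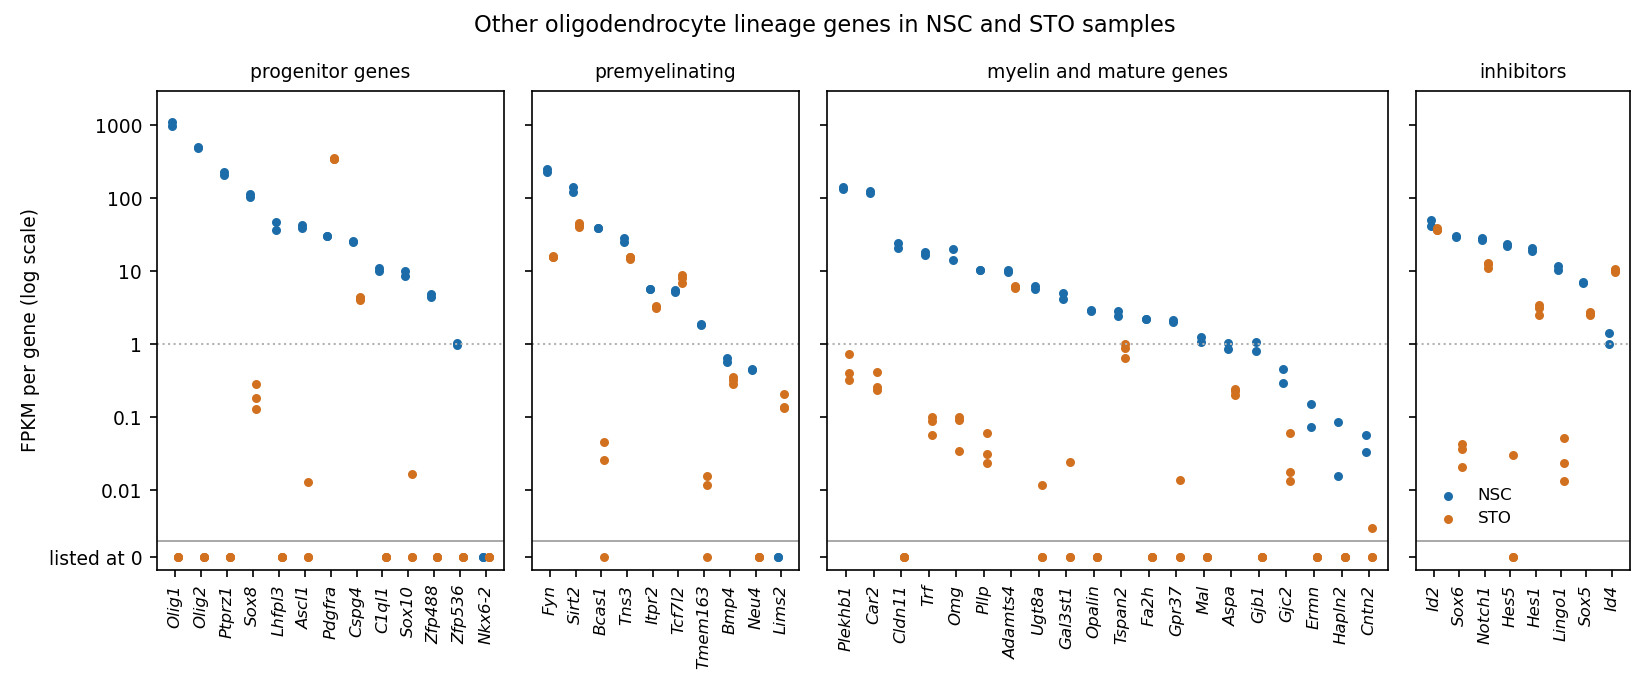
FPKM of the other lineage genes in each NSC (blue) and STO (orange) sample on a log axis, in panels by role and ordered by the NSC mean. Values listed at 0 lie under the grey line and the dotted line marks 1 FPKM. Pdgfra, Tcf7l2 and Id4 are among the few genes with orange points above the blue ones.

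Markers of other cells were compared in the same libraries. Calls for such markers were largely set by the filter and are to be read beside the 43.7% and 41.9% of all genes called higher in NSCs and in STO cells. Of 5 neural stem cell markers, 5 were higher in NSCs, 4 of them tested only through NSCs. These markers summed to 5351 to 5663 FPKM in NSCs and 1424 to 1497 FPKM in STO cells, where Vim alone had a mean of 1454 FPKM. Sox2, Pax6 and Fabp7 were at 0 in STO cells. Of 8 fibroblast markers, 7 were higher in STO cells, 6 of them tested only through STO cells. Col3a1, Lum and Dcn were at 0 in NSCs, and Lum, at 0.22 to 0.28 FPKM in STO cells, was not tested. Astrocyte markers moved with the members. All 7 were called higher in NSCs, 6 of which entered the test only through NSCs. Their summed levels were 496 to 505 FPKM in NSCs and 25.3 to 26.9 FPKM in STO cells. Slc1a3 and Aldoc had means of 247 and 152 FPKM in NSCs, where the median marker was at 30.5 FPKM. In STO cells Slc1a3 alone had a mean of 25.6 FPKM and the median marker was at 0.13 FPKM. Gfap, which the paper used as a negative control for NSCs by RT-PCR, had 15.9 and 16.9 FPKM in NSCs and 0.016, 0 and 0 FPKM in STO cells. Of 7 neuronal markers, 5 were tested, 3 of these only through NSCs, and 4 were higher in NSCs. Their sums were 120 FPKM in both NSC replicates and 12.3 to 12.9 FPKM in STO cells, but Map2 alone had a mean of 101 FPKM in NSCs and the median marker 3.13 FPKM. Tubb3 had means of 8.69 FPKM in NSCs and 8.30 FPKM in STO cells and was not called (adjusted p of 0.48 by limma). Stmn2, Rbfox3 and Snap25 were at 0 in STO cells. In NSC replicates 1 and 2 Snap25 stood at 3.03 and 3.22 FPKM. Stmn2 (0.10 and 0.061 FPKM) and Rbfox3 (0.62 and 0.41 FPKM) were low there and were not tested. The part of these cells in the members' levels was not tested. The Schwann cell list, which covers the myelinating cell of peripheral nerve, summed to 35.8 to 36.8 FPKM in NSCs and 37.8 to 39.2 FPKM in STO cells. Pmp22 made up most of both sums, with means of 28.6 FPKM in NSCs and 25.8 FPKM in STO cells. It and Cdh19 (2.00 and 0.019 FPKM) were called higher in NSCs. Prx (0.65 and 5.68 FPKM) and Egr2 (5.04 and 7.07 FPKM) were called higher in STO cells. None of 6 microglial and 3 endothelial markers reached a mean of 1 FPKM in either cell type, and their sums were at most 0.039 and 0.503 FPKM in NSCs.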

How the data were processed

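Poly(A) RNA of both cell types was sequenced as stranded, paired-end libraries. The authors aligned trimmed reads to mm9 with HISAT2 (4.8.2 in the submitters' processing notes) and deposited FPKM values with interval bounds from Cufflinks 2.2.1 for 40201 RefSeq transcripts per sample. The strand setting is not given in the sources used here. Read counts were not used here. The number of fragments behind a value was taken from the distance to its upper bound, read as 2 SDs of a Poisson count. This reading allows for counting error only, and wider intervals make the number too low for some well expressed genes. Pdgfra had 30.4 FPKM and 1947 implied fragments in NSC replicate 1, but 344 FPKM and 2247 in STO replicate 1. The number is an estimate, since 67.2% to 70.2% of low values came within 0.1 of a whole fragment.

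Samples were grouped by their titles. Symbols were matched by RefSeq identifier through a GRCm38.p6 table, used for names and promoters (99.4% matched), and FPKM was summed per symbol. A further Mobp transcript, NM_001039364, was not matched and was at 0 in all libraries. Loci are in mm9 and strands from gencode vM1. None of 8 genes that every cell uses was listed at 0.

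The 12277 genes whose mean reached 1 FPKM in NSCs or STO cells entered 1 fit of log2(FPKM + 1) by cell type (R 4.3.3, limma 3.58.1, moderated with a mean-variance trend). P-values were adjusted over these genes by the Benjamini-Hochberg method, with a threshold of 0.05, and the steps were tested on simulated data. The pseudocount of 1 understates differences of low genes. Python 3.11.15, pandas 2.3.3 and matplotlib 3.10.9 were used. One gene each of the myelin and Schwann cell lists is not reported here. The members and lists were chosen with earlier results of these data known. Besides the members, the genes named were set per list by symbol or were the 2 others with the largest called difference in each direction. Genes named only as at 0, not tested, overlapping or prominent in the sum of a list were chosen after their values were seen. Alternatives changed the pseudocount, filter, normalization, trend, replicate block, failed estimates and replicates.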

Additional observations from a re-analysis of the deposited data

How the results depend on the processing

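The 8 members tested kept their direction and their side of the threshold in all 97 values under the alternatives in which they could be tested. Of these 8, 7 entered the test only through NSCs and could hardly lose their call, so this says little about them. Requiring a mean of at least 1 FPKM in both cell types left 1 member tested, Cnp, which was called, and 1 progenitor, 1 further myelin and 4 inhibitor genes higher in NSCs, since fewer genes pass. Without a filter Mog was also tested and was higher in NSCs by 0.57 in log2(FPKM + 1) (limma, adjusted p = 0.00014), and 2 premyelinating genes were higher in STO cells. Leaving out single replicates gave 0 to 1 premyelinating genes higher in STO cells. With shares of implied fragments in place of FPKM, NM_010919 held 87.5% of Nkx2-2 in NSCs. Scaling to TPM moved the median difference of all genes from 0.023 to -0.14 and the calls to 5078 higher in NSCs and 6163 in STO cells, quantile normalization gave 5050 and 5445 and the filter in both cell types 3834 and 4290. With TPM, 9 members were tested and higher in NSCs. Of 601 values for single lineage genes, 594 kept direction and side, 7 were weaker (Tcf7l2 and Id2) and 0 reversed; the cause was not tested. With the replicate number as a block (STO replicate 3 left out), all 8 members were again higher in NSCs, among 5248 genes higher in NSCs and 4984 in STO cells, against 5371 and 5147. Deviations of samples with the same number correlated at 0.0029 and 0.065, and those of NSC replicate 1 and STO replicate 3 at 0.059. With 2 NSC replicates the deviations mirror each other, so these values cannot decide whether samples are paired. No pairing is stated. The precision of the STO values is limited, since they rest on few fragments for every member except Cnp. STO replicate 3 had about 22000000 implied fragments, beside 20600000 and 22300000 in the NSC replicates.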
